A study of Mus musculus with 2 samples.

Results

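The genes described here are the Janus kinase genes Jak1, Jak2 and Tyk2, the transcription factor genes Stat2, Stat3, Stat5b and Stat6, and Ifngr1 and Ifngr2, which encode the subunits of the interferon gamma receptor. They were chosen by symbol, and all 9 were found among the 54532 genes of the table and among the 12273 that reached 1 CPM (1 count per 1000000 gene counts of a library) in CON, PKCi or both. Cultured CMT167R cells were compared in 2 states: left untreated (CON), or given the agent named only as PKCi at a dose of 50 nM and collected after 24 h. The parent line CMT167 comes from a mouse lung carcinoma, and resistance to anti-PD1, which the labels give for the R line, is shared by both cultures. Each state gave 1 RNA sequencing library, so differences have no replicate check, no test between states was possible and no p-value is given. The identity of the PKCi compound is not in the labels, nor is whether the R line is 1 clone.

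Cytokine receptors of this class have no kinase of their own and carry Janus kinases on their inner tails. Ligand binding brings the kinases together, they phosphorylate the receptor, and STAT proteins dock there, are phosphorylated, pair and move to the nucleus. Interferon gamma signals through JAK1 on the IFNGR1 chain and JAK2 on the IFNGR2 chain. Interferon alpha and beta use TYK2 and JAK1 and act on STAT2. Cytokines of the interleukin-6 family act mainly through STAT3, interleukin-4 through STAT6, and growth hormone, prolactin and several haematopoietic cytokines through STAT5. In tumour cells the interferon gamma branch is known for inducing antigen presentation genes and PD-L1. Messenger RNA levels do not show whether these proteins were phosphorylated.

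The libraries held 16090186 (CON) and 16071153 (PKCi) gene counts, so that 1 CPM stood for 16.1 counts in each, and a count of 0 allowed up to 0.186 and 0.187 CPM (3 counts). Intervals are 95% intervals for counting error only, and they treat each read as independent. PCR copies of a molecule can be counted as separate reads, which would make the intervals too narrow. Each state has 1 culture, which says nothing of the spread between cultures. The 5 epithelial markers summed to 1642 CPM untreated and 2027 CPM with PKCi, or to 709 and 845 CPM without Krt8. Most of these sums came from the keratin genes Krt8 (933 and 1182 CPM) and Krt18 (643 and 765 CPM). Krt19 was at 59.7 and 71.1 CPM, while Epcam (3.48 and 6.28 CPM) and Cdh1 (2.92 and 3.36 CPM) were low. Of 13 leukocyte markers 9 were at 0 in both libraries, among them Ptprc and Cd3e, and the list summed to 10.9 and 6.97 CPM, or to 2.67 and 3.86 CPM without Lyz2. Of 7 retina markers 5 were at 0 in both libraries, and the list summed to 3 counts untreated and 1 with PKCi, although 1 protocol in the labels speaks of retinas. Fibroblast markers summed to 11.9 and 11.5 CPM, or to 3.05 and 7.16 CPM without Col1a1, which had 143 and 70 counts while Pdgfra had 43 and 97, and endothelial markers to 10 and 19 counts. The part of these small marker levels in the results was not tested.

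Ifngr2 and Stat3 were the members with the highest ratios between the libraries, and Ifngr1 encodes the partner chain of Ifngr2. Their upstream sequences are shown to let the reader see what stands before the start of the receptor chain that was higher, of its partner chain that differed little, and of Stat3. Each run is the 250 bases before the start site that RefSeq gives on GRCm38.p6, 5′ to 3′ on the strand of the gene. Capitals mark matches to any of 4 short patterns searched on both strands: TTCNNNGAA, the spacing that most STAT dimers bind; TTCNNNNGAA, the wider spacing bound by STAT6; GGGNNNNNCC, an NF-kB-like pattern; and TGANTCA, an AP-1-like pattern. The runs lie at chr16:91546809-91547058 on the plus strand for Ifngr2, chr10:19591699-19591948 on the plus strand for Ifngr1, and chr11:100939541-100939790 on the minus strand for Stat3.
Ifngr2: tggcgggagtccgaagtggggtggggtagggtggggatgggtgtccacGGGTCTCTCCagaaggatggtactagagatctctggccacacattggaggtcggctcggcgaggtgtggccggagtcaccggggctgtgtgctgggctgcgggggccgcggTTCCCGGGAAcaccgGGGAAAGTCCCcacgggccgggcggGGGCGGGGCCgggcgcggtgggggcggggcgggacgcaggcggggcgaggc
Ifngr1: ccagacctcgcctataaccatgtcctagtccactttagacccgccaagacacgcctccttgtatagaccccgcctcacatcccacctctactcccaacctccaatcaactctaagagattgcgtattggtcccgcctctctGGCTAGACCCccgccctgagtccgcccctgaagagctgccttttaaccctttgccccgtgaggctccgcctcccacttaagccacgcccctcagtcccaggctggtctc
Stat3: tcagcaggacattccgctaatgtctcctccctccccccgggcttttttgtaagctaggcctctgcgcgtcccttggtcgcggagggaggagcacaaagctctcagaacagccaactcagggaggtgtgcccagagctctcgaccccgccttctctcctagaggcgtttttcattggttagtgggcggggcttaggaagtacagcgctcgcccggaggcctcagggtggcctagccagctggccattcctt

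The Ifngr2 run held the palindrome TTCCCGGGAA, a match to the wider spacing, starting 91 bases before the start site, and GGGAAAGTCC, an NF-kB-like match, starting 76 bases before it. NF-kB-like matches also stood at 202 and 51 bases before the start, and a match on the other strand overlapped the one at 76. The Ifngr1 run held 1 NF-kB-like match, at 109 bases before the start, and the Stat3 run held no match to any of the 4 patterns. Over the full RefSeq windows of all 9 members, which run on past the start site, the wider STAT spacing was found in 2 members, Ifngr2 and Stat2, and the NF-kB-like pattern in 8. The narrower STAT spacing and the AP-1-like pattern were found in 0 of the 9. Of 32851 windows for all genes, 8.30% held the narrower spacing, 6.95% the wider spacing, 50.8% the NF-kB-like pattern and 7.81% the AP-1-like pattern. A match is a description of letters, not a binding site, and no binding was measured.

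Of the 9 genes, 8 had higher levels in the PKCi library and 1, Stat5b, a lower level. At least 2-fold higher, on the scale log2((PKCi + 1)/(CON + 1)) in CPM used for all log2 ratios, were Ifngr2 and Stat3, 2 of 9, where 6.53% of all 12273 genes passed the same size. None of the 9 was at least 2-fold lower, against 5.13% of all genes. At a size of 1.5-fold, 5 of 9 were higher (Ifngr2, Stat3, Jak2, Tyk2 and Stat6), against 16.8% of all genes, and 0 were lower, against 16.7%. The median log2 ratio of the 9 was 0.60 and that of all 12273 genes −0.01, with quartiles at −0.41 and 0.39. The 9 genes were chosen with results of these libraries known, so these counts describe them and test nothing. Their counts ran from 329 to 2832 untreated and from 357 to 3144 with PKCi, so that counting error was small beside most of the differences, and the interval of the fold lay above 1 for 7 genes, below 1 for Stat5b and held 1 for Ifngr1.

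**Figure D1:**
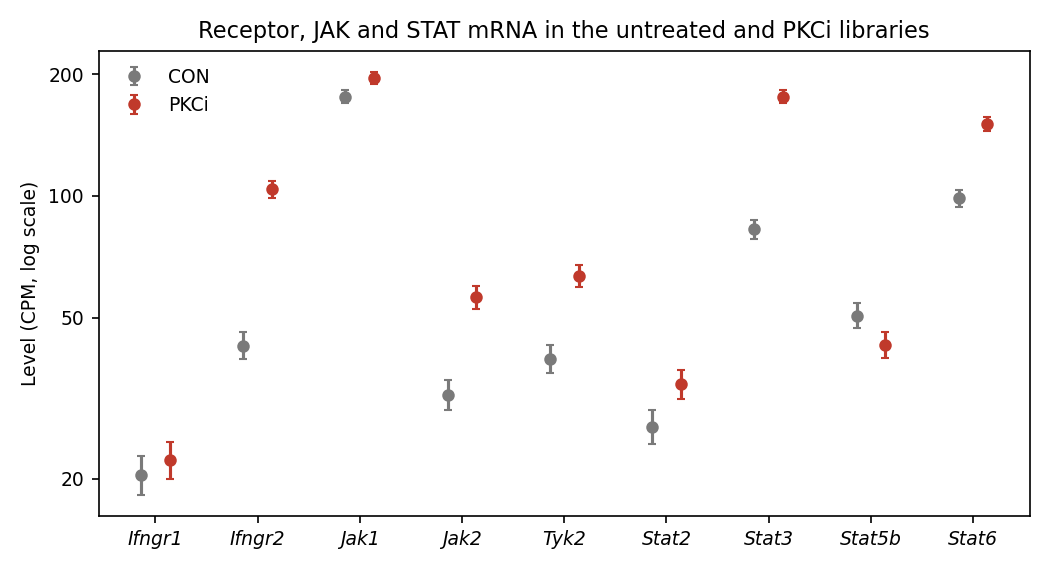
Level of each of the 9 genes in CPM on a log scale in the untreated (CON, grey) and PKCi (red) libraries, with bars for the 95% Poisson counting interval of 1 library each. Ifngr2 and Stat3 show the widest gaps, the intervals of Ifngr1 overlap, and Stat5b is lower with PKCi.

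The receptor chains of interferon gamma differed from each other. Ifngr2 (chromosome 16, plus strand) stood at 42.7 CPM in the untreated library and at 104 CPM in the PKCi library (687 and 1672 counts), a 2.44-fold higher level (95% interval 2.23 to 2.67) and a log2 ratio of 1.27. It encodes the chain that carries JAK2 and is in some cell types the limiting one for the response. Ifngr1, the chain that binds the ligand with high affinity and carries JAK1 (chromosome 10, 19591949 to 19610229, plus strand), was at 20.4 and 22.2 CPM (329 and 357 counts), and its 1.09-fold ratio was not detectable at this depth (95% interval 0.933 to 1.27). Among all measured genes 96.2% had a lower log2 ratio than Ifngr2 and 58.5% a lower one than Ifngr1. Per base of gene length, the level of Ifngr2 was 1.58 times that of Ifngr1 in the untreated library and 3.54 times with PKCi. The ratio of Ifngr2 to Ifngr1 counts was thus 2.24-fold higher with PKCi (95% interval 1.88 to 2.68), a comparison within each library that does not depend on how the libraries are scaled. In bulk RNA, more message in each cell and more cells that hold the message cannot be told apart.

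Among the kinases, Jak1 had the highest level per length and differed least. Jak1, which serves the receptors of both interferon types and of the interleukin-6 family (chromosome 4, 101152367 to 101265282, minus strand), was at 176 and 196 CPM (2832 and 3144 counts, 1.11-fold, 95% interval 1.06 to 1.17). Jak2, which also serves the growth hormone and erythropoietin receptors (chromosome 19, 29251828 to 29313080, plus strand), was at 32.3 and 56.2 CPM (519 and 904 counts), 1.74-fold higher (95% interval 1.56 to 1.95). Tyk2, the kinase on the IFNAR1 chain (chromosome 9, 21104068 to 21131243, minus strand), was at 39.6 and 63.6 CPM (637 and 1022 counts), 1.61-fold higher (95% interval 1.45 to 1.78). Both were thus higher with PKCi by less than 2-fold, and the counts of Jak2 relative to those of Tyk2 were not detectably different between the libraries (1.09-fold, 95% interval 0.935 to 1.26). Relative to Jak1 counts, those of Jak2 were 1.57-fold higher with PKCi (95% interval 1.39 to 1.77) and those of Tyk2 1.45-fold higher (95% interval 1.29 to 1.62). Of the summed level of these 3 kinases in TPM (counts divided by gene length, then scaled to a sum of 1000000 in each library), Jak1 made up 66.7% untreated and 57.0% with PKCi, Jak2 17.6% and 23.5%, and Tyk2 15.8% and 19.5%.

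The STAT genes went in both directions. Stat3, the main effector of the interleukin-6 family, stood at 82.7 CPM in the untreated library and at 176 CPM in the PKCi library (1330 and 2829 counts), 2.13-fold higher (95% interval 1.99 to 2.27) with a log2 ratio of 1.08. Stat6, the effector of interleukin-4 and interleukin-13 (chromosome 10, 127642986 to 127660957, plus strand), was at 98.8 and 150 CPM (1589 and 2418 counts), 1.52-fold higher (95% interval 1.43 to 1.62). Stat2, which joins IRF9 in the complex formed after interferon alpha or beta (chromosome 10, 128270559 to 128292849, plus strand), was at 26.9 and 34.2 CPM (433 and 550 counts), 1.27-fold higher (95% interval 1.12 to 1.45). Stat5b, an effector of growth hormone, was the member below 0 (chromosome 11, 100780731 to 100850724, minus strand), with 50.7 and 42.9 CPM (815 and 689 counts) and hence a 1.18-fold lower level (95% interval 1.07 to 1.31). The differences of Stat2 and Stat5b were modest beside those of all genes, of which 72.2% had a lower log2 ratio than Stat2 and 34.8% a lower one than Stat5b. Relative to Stat5b counts, those of Stat3 were 2.52-fold higher with PKCi (95% interval 2.23 to 2.84), and relative to Stat6 counts 1.40-fold higher (95% interval 1.28 to 1.53). In TPM, the 4 genes summed to 145 untreated and 216 with PKCi. Stat6 made up 50.1% and 51.7% of that sum, Stat3 19.4% and 27.9%, Stat5b 20.4% and 11.7%, and Stat2 10.1% and 8.73%.

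**Figure D2:**
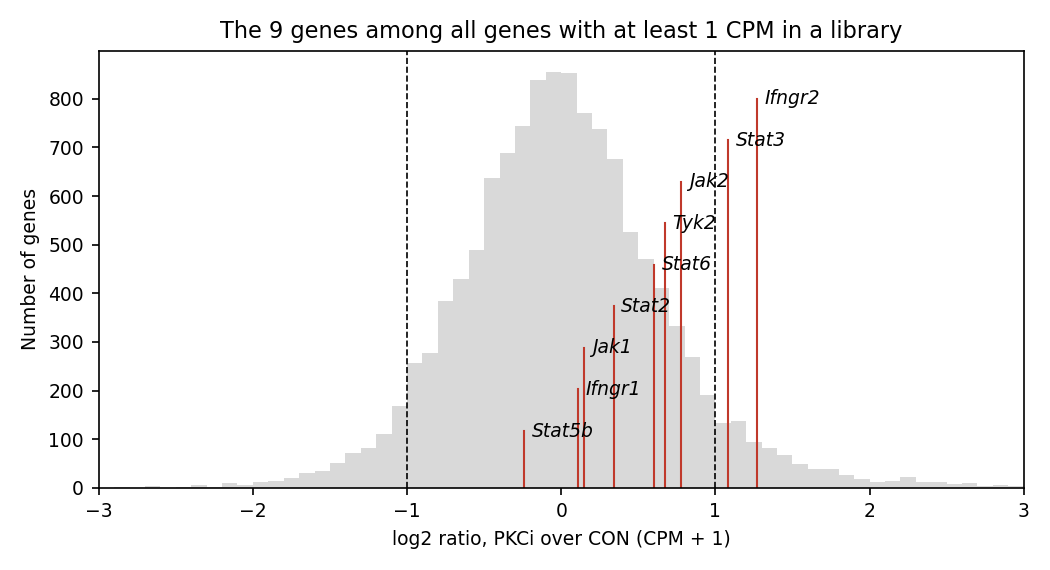
Histogram of the log2 ratio of PKCi over CON (CPM + 1) for the 12273 measured genes, cut at 3 on each side, with a red line for each of the 9 genes and dashed lines at 2-fold; the height of a red line has no meaning. Ifngr2 and Stat3 lie beyond the upper dashed line, and Stat5b is the only one of the 9 left of 0.

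Levels were compared between genes only in TPM. In the untreated library the order was Jak1 (79.1 TPM), Stat6 (72.9), Ifngr2 (36.8), Stat5b (29.7), Stat3 (28.2), Ifngr1 (23.3), Jak2 (20.8), Tyk2 (18.7) and Stat2 (14.7). Neighbours whose counting intervals overlapped there were Jak1 and Stat6, Stat5b and Stat3, Ifngr1 and Jak2, and Jak2 and Tyk2. With PKCi the order was Stat6 (112 TPM), Ifngr2 (90.2), Jak1 (88.4), Stat3 (60.3), Jak2 (36.5), Tyk2 (30.3), Ifngr1 (25.5), Stat5b (25.3) and Stat2 (18.9), with overlapping intervals for Ifngr2 and Jak1 and for Ifngr1 and Stat5b. Ifngr2 thus stood above 59.5% of the measured protein-coding genes untreated and above 83.5% with PKCi, and Stat3 above 51.6% and 74.4%. Stat2 had the lowest level per length of the 9 in both libraries.

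On the coordinates of the deposited table (GRCm38), which for all 9 genes were those of GENCODE M21, Ifngr2 (ENSMUSG00000022965) spans chromosome 16 from 91547072 to 91565623 and Stat3 (ENSMUSG00000004040) chromosome 11 from 100885098 to 100939540. Ifngr2 lies at the end of a cluster of type II cytokine receptor genes that spans 193 kb, in the order Ifnar2, Il10rb, Ifnar1 and Ifngr2, all on the plus strand. All 4 had higher levels in the PKCi library, 3 of them, Ifngr2 included, at least 2-fold (6.53% of all genes). Il10rb, the shared chain of the interleukin-10, interleukin-22 and interferon lambda receptors, was at 11.9 and 31.9 CPM (192 and 513 counts, 2.68-fold, 95% interval 2.26 to 3.17). Ifnar1, the TYK2-binding chain of the interferon alpha and beta receptor, was at 59.2 and 135 CPM (952 and 2175 counts, 2.29-fold, 95% interval 2.12 to 2.47), and its partner Ifnar2 at 17.5 and 27.4 CPM (281 and 441 counts, 1.57-fold, 95% interval 1.35 to 1.83). The counts of Ifngr2 relative to those of Ifnar1 were not detectably different between the libraries (1.07-fold, 95% interval 0.946 to 1.20). Within 100 kb on either side stood 4 other measured genes, all beyond Ifngr2, of which 2 were higher with PKCi and 2 lower. The nearest, Tmem50b on the opposite strand, was at 37.4 and 22.6 CPM (1.66-fold lower), Gart, a purine synthesis gene, was 1.82-fold lower, Son, a splicing factor gene, was 1.22-fold higher, and Dnajc28 had 32 and 97 counts (3.03-fold higher, 95% interval 2.02 to 4.68). The view of these loci was chosen after the values were seen.

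Stat3 lies beside Stat5a and Stat5b on chromosome 11, and levels in this cluster differed in both directions. Stat5a, which overlaps the end of Stat3 by 72 bases on the opposite strand, stood at 31.6 CPM in the untreated library and at 22.6 CPM in the PKCi library (509 and 364 counts), a 1.40-fold lower level (95% interval 1.22 to 1.60), as Stat5b beyond it was lower and Stat3 higher. STAT5A and STAT5B are close relatives with overlapping roles, and reads from alike stretches of their genes could have been assigned to either of them. Reads from the 72 bases shared by Stat5a and Stat3 could have been assigned to Stat5a or to Stat3 if strand was not used in counting. Relative to Stat5a counts, those of Stat3 were 2.97-fold higher with PKCi (95% interval 2.55 to 3.46). Among the other genes that overlap a member in GENCODE M21, the only one with more than 1 count in a library was Nab2, which shares 40 bases with Stat6 on the opposite strand and was at 471 and 340 counts.

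**Figure D3:**
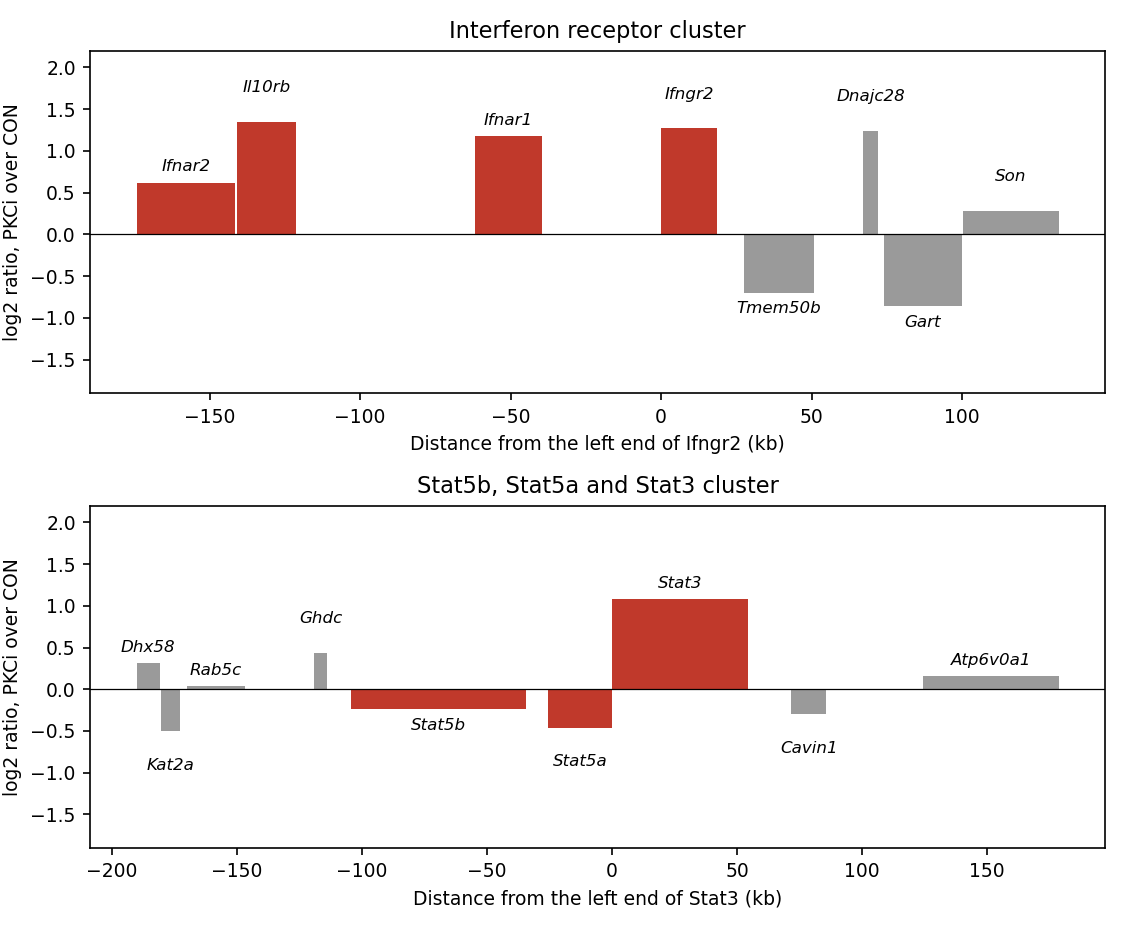
Log2 ratio of PKCi over CON (CPM + 1) for measured genes in and within 100 kb of the receptor cluster that ends in Ifngr2 (top) and the cluster of Stat5b, Stat5a and Stat3 (bottom), drawn at their distance in kb from the left end (lowest coordinate) of Ifngr2 or Stat3, with bar width equal to gene span and cluster genes in red. The 4 receptor genes all lie above 0, while Stat3 lies above 0 and Stat5a and Stat5b below.

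Jak3, the kinase of receptors that use the common gamma chain, was at 14.8 and 31.7 CPM (238 and 509 counts), 2.14-fold higher with PKCi (95% interval 1.83 to 2.51), but short of 2-fold on the log2 scale with a pseudocount of 5 CPM in place of 1. Il2rg, the common gamma chain itself, had 0 and 5 counts. Stat4, an effector of interleukin-12, had 2 and 3 counts and was not measured by the limit of 1 CPM.

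Outside the cluster on chromosome 16 no listed receptor gene that was measured passed 2-fold on the log2 scale used here. Of 9 other type II cytokine receptor genes 5 were measured, of which 2 (Ifnar1 and Il10rb) passed 2-fold upward and 0 downward (6.53% and 5.13% of all genes), and their median log2 ratio was 0.62 (−0.01 over all genes). Ifnlr1, the private chain of the interferon lambda receptor, had 6.96 and 3.73 CPM (112 and 60 counts), that is, a 1.86-fold lower level (95% interval 1.35 to 2.60). Of 33 type I cytokine receptor genes 10 were measured, and 0 passed 2-fold in either direction; 5 lay above 0 and 5 below, around a median of 0.11. Il6st, the shared chain gp130 of the interleukin-6 family, was at 331 and 421 CPM (5330 and 6770 counts, 1.27-fold higher, 95% interval 1.23 to 1.32). Il6ra, the chain that binds interleukin-6, had 40.9 and 20.6 CPM (658 and 331 counts), that is, a 1.99-fold lower level (95% interval 1.74 to 2.27). The remaining chains with the largest log2 ratios were low, Il5ra with 25 and 56 counts and Crlf2 with 9 and 25. Il4ra, which feeds Stat6, was at 99.9 and 86.6 CPM (1.15-fold lower, 95% interval 1.07 to 1.24).

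Ligand genes that signal through Janus kinases were mostly low or not detected: 29 of 37 were under 1 CPM in both libraries, and 17 were at 0 in both. Of the 8 measured, 5 passed 2-fold upward with PKCi and 0 downward (6.53% and 5.13% of all genes), and the median log2 ratio was 1.81 (−0.01 over all genes). The 5 were Csf3 (1.49 and 85.7 CPM), Lif (40.0 and 423 CPM), Il11 (13 and 124 counts), Clcf1 (52.7 and 203 CPM) and Il6 (0 and 36 counts, at least 12.0-fold higher against a floor of 3 counts per library). Lif, Il11, Clcf1 and Il6 belong to the family that acts through gp130 and STAT3, and Clcf1 was 3.86-fold higher (95% interval 3.57 to 4.16). Lif was 10.6-fold higher (95% interval 9.74 to 11.5) and Csf3, the ligand of a STAT3-coupled receptor on granulocytes, 57.5-fold higher (95% interval 38.5 to 90.0). Of the receptor chains that pair with gp130 or bind these ligands, Lifr, Osmr and Csf3r had 0 counts in both libraries, as had Ghr and Prlr, the growth hormone and prolactin receptors. Il11ra1, which binds interleukin-11 and pairs with gp130, was measured at 12.7 and 10.3 CPM (204 and 166 counts), a 1.23-fold lower level not detectable at this depth (95% interval 0.995 to 1.52). The 5 listed interferon genes were at or under the floor, among which Ifng had 0 and 1 counts and Ifnb1 3 and 0.

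Negative regulators of the pathway formed no common direction. Of 22 listed, 19 were measured, and 0 passed 2-fold in either direction (6.53% of all genes upward, 5.13% downward), with 9 above 0, 10 below and a median of −0.02. Those with the largest log2 ratios were SOCS proteins, which bind receptors and kinases and block them, and a phosphatase. Socs1 was at 3.42 and 6.47 CPM (55 and 104 counts, 1.89-fold higher, 95% interval 1.35 to 2.67), Socs3, an inhibitor that STAT3 induces, at 20.7 and 33.3 CPM (1.61-fold higher, 95% interval 1.40 to 1.85), and Ptpn6, the phosphatase SHP-1, at 16.6 and 26.4 CPM (1.59-fold higher). Cish, a target of STAT5, had 2 and 9 counts. Socs2, another target of STAT5, was at 9.94 and 14.4 CPM (1.45-fold higher, 95% interval 1.18 to 1.79). The phosphatase gene Ptpn2 was at 39.7 and 29.3 CPM (1.35-fold lower, 95% interval 1.20 to 1.53).

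Interferon regulatory factors are transcription factors that act beside STAT proteins in interferon responses. Of 8 genes of this family 5 were measured and all 5 were above 0, with Irf1 alone past 2-fold upward (6.53% of all genes) and a median of 0.67. Irf1 was at 19.7 and 44.1 CPM (317 and 709 counts, 2.24-fold higher, 95% interval 1.96 to 2.56), and was short of 2-fold on the log2 scale with a pseudocount of 5 CPM. Irf1 is also 1 of 26 reported genes that interferon gamma is known to raise in other systems. Of these, 18 were measured, 6 passed 2-fold upward and 0 downward (6.53% and 5.13% of all genes), 16 lay above 0 and 2 below, and the median was 0.84 (−0.01 over all genes). With a pseudocount of 0.1 CPM 10 passed upward and 1 downward, and with 5 CPM 3 passed upward. Gbp2, a guanylate-binding protein gene, was at 10.8 and 106 CPM (173 and 1696 counts, 9.82-fold higher, 95% interval 8.39 to 11.5). The others past 2-fold were Parp14 (5.72-fold), Upp1 (4.42-fold), Gbp9 (2.86-fold), Irf1 and Nlrc5, an activator of MHC class I genes, which had 7 and 43 counts. The chemokine gene Cxcl10, with 18 and 4 counts (4.49-fold lower, 95% interval 1.48 to 18.3), and Wars (1.23-fold lower) were the 2 below 0. B2m, the light chain of MHC class I, was 1.78-fold higher (185 and 328 CPM, 95% interval 1.70 to 1.86). Cd274, which encodes PD-L1, had 28 and 43 counts, too few to detect its 1.54-fold difference (95% interval 0.934 to 2.57). These genes are also induced by other factors.

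Genes known to be induced through STAT3 went in both directions, with more of them higher. Of 24 listed, 19 were measured; 7 of these passed 2-fold upward and 1 downward (6.53% and 5.13% of all genes), around a median of 0.66 (−0.01 over all genes). Upward 6 passed with TMM or median-of-ratios scaling and 5 with a pseudocount of 5 CPM. The 7 included Vegfa, the endothelial growth factor, at 331 and 1518 CPM (4.58-fold higher, 95% interval 4.45 to 4.72), and the transcription factor genes Junb (4.54-fold), Cebpd (3.14-fold), Cebpb (2.40-fold) and Bcl3 (2.28-fold). Zfp36, an RNA decay factor, was 2.13-fold higher, and the acute phase gene Saa3 had 5 and 39 counts. Survivin (Birc5) was 2.05-fold lower and cyclin D1 (Ccnd1) 1.78-fold lower. The genes of this list, higher and lower alike, are also regulated by other factors, and the part of STAT3 was not tested. Birc5 was short of 2-fold on the log2 scale with upper-quartile scaling or a pseudocount of 5 CPM. Of 11 listed genes known to be induced through STAT5, 8 were measured. Of these, Bcl6 alone passed 2-fold upward (2.18-fold) and Igf1 alone downward (40 and 4 counts), against 6.53% and 5.13% of all genes, around a median of 0.10. Upward 2 of these 8 passed with a pseudocount of 0.1 CPM. Of 15 listed genes known to be induced through STAT6, 6 were measured and 7 were at 0 in both libraries. Of the 6 measured, 1 passed 2-fold upward and 1 downward (6.53% and 5.13% of all genes), around a median of 0.82 (−0.01 over all genes). Mrc1 was 5.50-fold higher (55 and 302 counts, 95% interval 4.11 to 7.47) and Pparg 4.57-fold lower (128 and 28 counts, 95% interval 3.01 to 7.14), while Arg1 was under 1 CPM in both libraries. With upper-quartile scaling 2 of the 6 passed upward. With a pseudocount of 5 CPM neither Igf1 nor Pparg passed 2-fold downward on the log2 scale, and Igf1 did not with TPM scaling or a filter of 5 CPM.

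**Figure D4:**
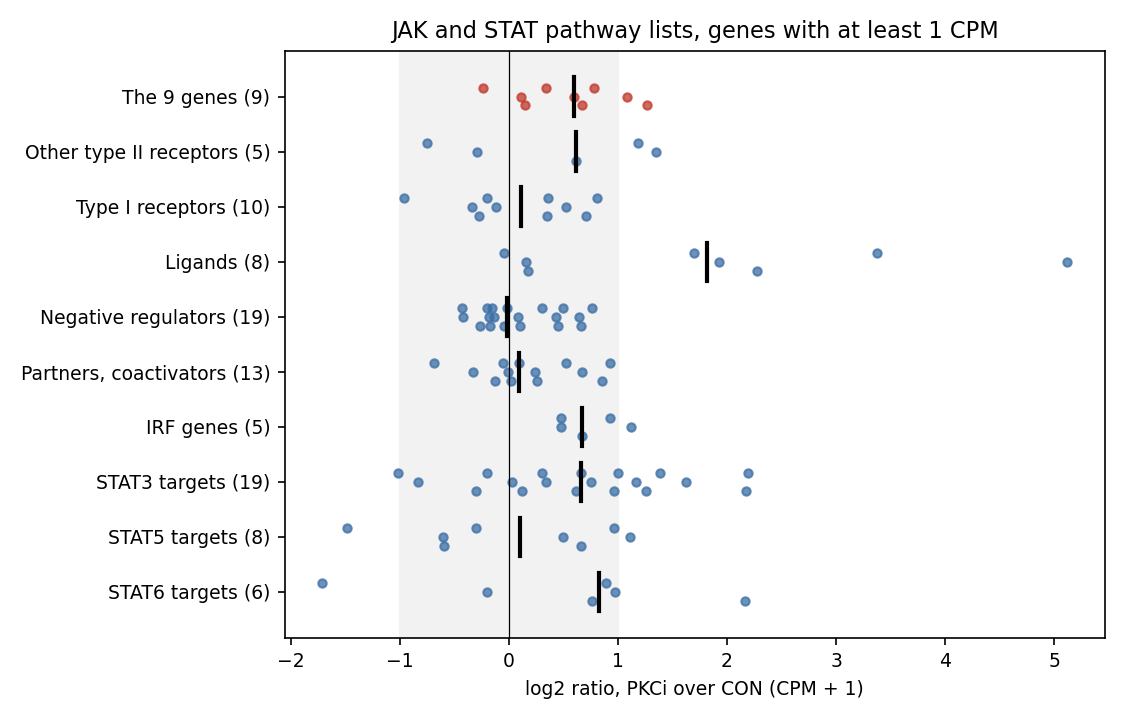
Log2 ratio of PKCi over CON (CPM + 1) of each measured gene of the 9 members (red) and of 9 pathway lists (blue), with the number measured in brackets, the median as a black bar and the range under 2-fold shaded; dots are spread vertically for display. Ligand genes reach furthest to the right, and negative regulators, type I receptors, and partners and coactivators all stay inside the shaded range.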

How the data were processed

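The authors deposited 1 table of raw counts, with a column for each library and a row for each gene. Reads were aligned with HISAT2 2.0.5 on the mouse builds GRCm38 and mm10, per the submitters' processing notes, and counted with a program, strand setting and annotation not given in the sources used here. Although the table is named for FPKM, all values are whole and were used as counts. Gene lengths in another unit (bases) are as listed per the file headers. Libraries were grouped by the treatment label, and columns that could not be assigned numbered 0.

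Counts were scaled to the library total (CPM), genes with at least 1 CPM in 1 library were called measured, and log2 ratios used a pseudocount of 1 CPM, which shrinks low genes. Folds are plain ratios of CPM with an exact conditional binomial (Clopper-Pearson) 95% interval, and ratios of 2 genes within libraries are conditional odds ratios with exact 95% intervals. TPM used the listed lengths. Python 3.11.15 with scipy 1.17.1 was used, and edgeR 4.0.16 for the TMM factors only. The calculation was checked on simulated libraries with Poisson counts and planted differences. These held no PCR copies and no spread between cultures, so the check does not bear on those limits. All 9 members had RefSeq promoter windows on GRCm38.p6 (10 windows, Stat5b having 2). Protein sequences were not used here, and some genes of the pathway are not reported here.

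The members and lists were chosen with earlier results of these data known. Named were all 9 members; of each list, genes past 2-fold and otherwise up to 4 of the largest absolute log2 ratio; and Socs3, Socs1, Cish, Irf1, Il6st and Ifnar1. Others, such as Il2rg, Socs2, Ptpn2, Il4ra, Il11ra1, Lifr, Osmr, Csf3r, Ghr, Prlr, B2m, Cd274, Wars, Cxcl10, Ifng, Ifnb1, Ccnd1 and Arg1, were named after their values were seen. With 2 libraries each gene has 1 ratio, so genes of like pattern were not sought. The marker sums without 1 marker, the count over the reported genes of the interferon gamma list and the view of 2 loci were also chosen after seeing the data. Alternatives were other scalings, pseudocounts, filters and a smaller fold.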

Additional observations from a re-analysis of the deposited data

How the results depend on the processing

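The log2 ratios of the 9 genes moved by less than their counting interval under TMM, median-of-ratios, upper-quartile and TPM scaling, a total without mitochondrial and the 10 most abundant genes, and pseudocounts of 0.1 and 5 CPM, in 63 of 63 values. The scalings shifted the median log2 ratio of all measured genes by only −0.01 to 0.03. All 9 genes were at 20.4 CPM or more in both libraries. The settings could thus move these ratios little, and the 63 values are not separate checks. Ifngr2 ranged from 1.19 to 1.29, Stat3 from 1.05 to 1.11 and Stat5b from −0.25 to −0.21, and no sign turned. The number of the 9 at least 2-fold higher was 2 under each of these settings and under a filter of 5 CPM or none, and 5 when the size was set at 1.5-fold. The share of all measured genes at least 2-fold higher was 6.53% and became 9.86% with TPM scaling, 3.66% with a pseudocount of 5 CPM and 3.84% with no filter, and the share at least 2-fold lower went from 5.13% to 2.64% and 3.01% under the last 2 of these. With a pseudocount of 0.1 CPM, 2 and not 0 of the type I receptors were at least 2-fold higher, 1 ligand gene was at least 2-fold lower with TPM scaling in place of 0, and with 5 CPM Jak3 and Irf1 no longer passed. Birc5 no longer passed with upper-quartile scaling or a pseudocount of 5 CPM, which leaves 0 of the STAT3 list at least 2-fold lower. No paired analysis was possible because each group has 1 library. Depth limits the genes with few counts, such as most ligands, and no setting replaces a second culture. Ifngr1 had the fewest counts of the 9 (329 and 357), with a fold interval of 0.933 to 1.27.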

Other observations

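Among partners and coactivators of STAT proteins, 13 of 13 listed genes were measured and 0 passed 2-fold in either direction (6.53% of all genes upward, 5.13% downward). The median log2 ratio was 0.09, beside −0.01 over all measured genes. Ep300 and Crebbp, the related acetyltransferases p300 and CBP that STAT proteins recruit, were at 115 and 220 CPM (1848 and 3543 counts, 1.92-fold higher with PKCi, 95% interval 1.81 to 2.03) and at 42.8 and 68.9 CPM (689 and 1107 counts, 1.61-fold higher, 95% interval 1.46 to 1.77). Nmi, a protein that binds N-Myc and STAT proteins and is itself induced by interferon, was at 4.23 and 8.40 CPM (68 and 135 counts, 1.99-fold higher, 95% interval 1.47 to 2.70). Snd1, a coactivator of STAT6 and RNA-binding protein, was the lowest of the list, with 781 and 482 CPM (12561 and 7749 counts, hence 1.62-fold lower, 95% interval 1.57 to 1.67). Irf9, the DNA-binding partner of STAT2, was at 10.8 and 12.9 CPM (173 and 207 counts), a 1.20-fold ratio not detectable at this depth (95% interval 0.974 to 1.47).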
